A study of Mus musculus with 12 samples.

Results

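The 7 genes described here are DNA damage tolerance and repair genes that are linked to p53 in the literature: the translesion polymerase genes Polk, Polh, Poli and Rev3l, the nucleotide excision repair genes Xpc and Ddb2, and the nucleotide supply gene Rrm2b. They were taken by symbol from the 54735 gene symbols listed for every library, and all 7 were found. RNA from the pallium, the dorsal telencephalon from which the cortex forms, was sequenced from 12 C57/Bl6 mouse embryos at E13.5, with 4 embryos per genotype. Control embryos were Rnu11wt/flx::Trp53wt/wt::Emx1-Cre+, with 1 floxed copy of Rnu11, the gene of the U11 RNA of the minor spliceosome. Embryos of the cKO group were Rnu11flx/flx::Trp53wt/wt::Emx1-Cre+, and those of the dKO group were Rnu11flx/flx::Trp53flx/flx::Emx1-Cre+, which adds deletion of Trp53, the p53 gene. All 12 embryos carried Emx1-Cre, which recombines floxed alleles in the Emx1 lineage of pallial progenitors and their descendants. Vessel, blood, microglial and ventrally derived cells in the dissected tissue arise outside that lineage and keep their floxed alleles.

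Replicating cells that meet a damaged template can let a translesion polymerase copy past the lesion, a process in which the Y-family enzymes kappa, eta and iota insert bases opposite damage and polymerase zeta, built on the REV3L subunit, extends from them. Nucleotide excision repair removes helix-distorting lesions after recognition by XPC or by the DDB1-DDB2 complex. RRM2B is the p53-inducible small subunit of ribonucleotide reductase, the enzyme that makes deoxyribonucleotides, and stands in for the S-phase subunit RRM2. Setting cKO against control asks how these transcripts respond to loss of U11, and dKO against cKO and against control asks what remains of it when p53 is lost as well.

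Polk was the member with a large change. Its level was about 4-fold higher in cKO than in control, and its dKO mean lay in the control range. Of the other 6 members, Poli and Rrm2b rose in cKO and Polh, Rev3l and Rrm2b were lower in dKO than in cKO, all by much less, and none of these smaller differences was called once the shift of the typical gene was removed by centring. Xpc and Ddb2 did not pass the test in any comparison.

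Of the 7 members, 4 lie close to a neighbouring protein-coding gene on the opposite strand in the GENCODE annotation of GRCm38 (mm10). Polk (chr13:96480690-96542579, minus strand) starts 39 bp from the start of Col4a3bp, the gene of a ceramide transfer protein. Polh (chr17:46171355-46202645, minus strand) starts 137 bp from Xpo5, the gene of the exportin that carries miRNA precursors out of the nucleus. Xpc (chr6:91489305-91515888, minus strand) starts 40 bp from Lsm3, which encodes an Sm-like protein that binds U6 RNA. These 3 pairs are head to head, so a short stretch separates both starts. Ddb2 (chr2:91211572-91236982, minus strand) overlaps Acp2, a lysosomal phosphatase gene, on the opposite strand. Rev3l lies at chr10:39732118-39875211 (plus strand), and its nearest protein-coding neighbours are more distant. Rrm2b lies at chr15:37923952-37961318 (minus strand), where it overlaps the antisense gene Gm49085 and the processed pseudogene Gm3362. Polk overlaps the protein-coding gene Gm17622 on the opposite strand, which is listed at 0 in all 12 libraries. Poli overlaps Mir6357 on the opposite strand, listed at 0 in 9 of the 12 and reaching 19.2 TPM in the others. Its means were 9.17 TPM in controls, 0 in cKO and 4.49 in dKO. Rev3l overlaps Gm22105 (listed at 0 in all), Gm16210 (0.0448 to 0.616 TPM) and Gm26824 (0.139 to 0.575 TPM). Gm3362 lies on the strand of Rrm2b and stood at 517 to 756 TPM, far above Rrm2b itself. The antisense Gm49085 averaged 0.404 TPM in controls, 0.536 in cKO and 0.298 in dKO. How the authors assigned reads from overlapping genes is not given in the sources used here, so reads of 5 members (Polk, Poli, Rev3l, Ddb2 and Rrm2b) and of the genes that overlap them may not have been told apart.

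The stretches between the paired starts are shown because they are the DNA that each member shares with its neighbour, whose values serve below as a comparison from the same locus. They are read on the member's strand, 5′ to 3′, from the RefSeq promoter windows (GRCm38), and capitals mark GGGCGG, the core of a GC box.
Polk and Col4a3bp, chr13:96542580-96542617: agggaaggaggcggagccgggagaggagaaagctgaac
Polh and Xpo5, chr17:46202646-46202781: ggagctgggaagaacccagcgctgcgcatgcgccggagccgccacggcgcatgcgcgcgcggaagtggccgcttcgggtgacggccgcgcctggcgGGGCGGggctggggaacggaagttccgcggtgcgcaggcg
Xpc and Lsm3, chr6:91515889-91515927: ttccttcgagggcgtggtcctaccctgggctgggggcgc
All 3 are rich in G and C, with GC contents of 63.2%, 77.2% and 71.8% in the order shown. The windows of 300 bases are longer than these stretches, and their median GC content was 52.7% over all 32851. The whole window of Polh stood at 72%, and that of the upstream Polk start at 68.7%. GGGCGG was searched on both strands and occurs in 35.7% of all windows. It is present in the Polh stretch. The Polk and Xpc stretches, of 38 and 39 bases, do not hold it, but the 300-base window of the upstream Polk start has 1 match outside the stretch shown.

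Polk has a second RefSeq start inside the gene, at position 96519187 of chromosome 13, and the intronic sequence upstream of it is shown because it holds the only match to a p53 half-site in the windows of Polk and Polh, the 2 members with a window of their own. The consensus p53 half-site was searched on both strands with no mismatch, and capitals mark the match, whose 3′ end lies 222 bases upstream of that start.
Polk internal start, chr13:96519319-96519437: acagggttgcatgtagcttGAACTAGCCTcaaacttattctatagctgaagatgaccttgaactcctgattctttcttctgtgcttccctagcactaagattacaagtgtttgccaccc
A half-site match occurs in 8.36% of all windows, so this match by itself describes the sequence and does not mark a binding site. The GENCODE annotation gives Polk 11 transcripts, of which 6 are protein-coding. The deposited values are per gene, so transcripts from the upstream and the internal start cannot be told apart.

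The unit of all values is TPM, the abundance of a transcript scaled by its length to a fixed library sum, which allows levels of different genes to be compared. TPM keeps no sequencing depth, so depth is unknown and no counting interval is given. As a check of the labels, Rnu11 stood at 640.5 ± 86.4 TPM in controls, 144 ± 20.4 in cKO and 164 ± 26.3 in dKO, and Trp53 at 3.82 ± 1.73, 4.24 ± 0.404 and 1.22 ± 0.252 (SD, n = 4 per group). The libraries are dominated by structural RNA, and nuclear protein-coding genes held 14.6% to 16.3% of TPM in controls, 16.1% to 19.99% in cKO and 14.4% to 15.5% in dKO. Among the 11764 genes whose mean reached 1 TPM, the median log2(TPM + 1) difference was 0.25 in cKO against control, -0.26 in dKO against cKO and -0.01 in dKO against control. Differences below use log2(TPM + 1), a scale that understates changes of low genes, and adjusted p-values are from limma with Benjamini-Hochberg adjustment over those 11764 genes, with a call at an adjusted p under 0.05. Each is read against the median of all genes, and values after median-shift centring, which removes the shift of the typical gene from each library, are given where the call changed. Each p-value sets a group difference against the spread between embryos, estimated over the 3 groups together. The labels do not say whether embryos came from separate litters, so differences between litters, if any, cannot be told apart from those between genotypes.

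**Figure D1:**
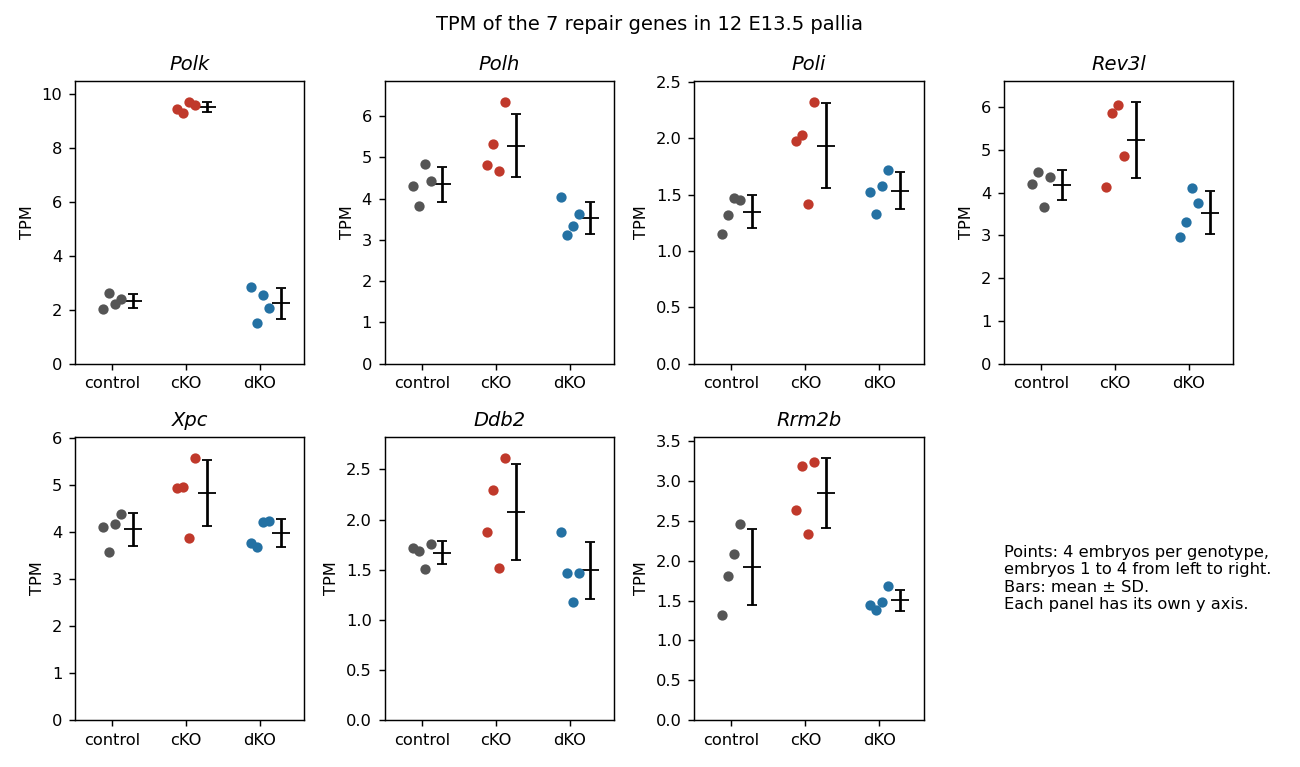
TPM of each of the 7 genes (y axis, own scale per panel, starting at 0) in control, cKO and dKO pallium; points are single embryos, 1 to 4 from left to right, and bars are mean ± SD (n = 4). Polk in cKO lies between 9.31 and 9.72 TPM, above every control and dKO embryo, whereas the cKO points of Poli, Xpc, Ddb2, Polh, Rev3l and Rrm2b reach into the control range.

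Polk encodes polymerase kappa, which bypasses bulky guanine adducts. Its level was 2.03, 2.63, 2.23 and 2.42 TPM in the 4 control embryos, 9.46, 9.31, 9.72 and 9.61 in cKO, and 2.83, 1.49, 2.54 and 2.09 in dKO. Every cKO embryo stood far above every other embryo, while dKO and control overlapped. The mean rose from 2.33 ± 0.254 TPM (controls) to 9.52 ± 0.176 (cKO; SD, n = 4 per group), a 4.09-fold difference, and was 2.24 ± 0.584 in dKO. As deposited, the cKO embryos differed little among themselves, with a coefficient of variation of 1.85%, against 10.9% in control and 26.1% in dKO. Scaled to the same protein-coding total, they stood at 9.38, 8.48, 9.64 and 7.67 TPM (8.79 ± 0.899, SD, n = 4). The small spread thus belongs to the deposited scale. As deposited, the difference was 1.66 ± 0.12 (SE) for cKO against control (adjusted p = 3.33e-06 in limma). For dKO against cKO it was -1.72 ± 0.12 (adjusted p = 3.33e-06 in limma). For dKO against control it was -0.05, with a 95% interval from -0.31 to 0.20 (adjusted p = 0.852 in limma). The Polk calls were also made under all 20 alternative settings, with a smallest difference of 1.39 (quantile normalization) for cKO against control. Of the 11764 genes tested, 29 had a larger increase in cKO than Polk.

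The comparison with Col4a3bp, across the stretch of 38 bases printed above, sets Polk against a gene of the same locus and the same library. Col4a3bp stood at 2.27 ± 0.117 TPM in controls, 3.07 ± 0.448 in cKO and 2.11 ± 0.194 in dKO (SD, n = 4 per group). Its difference was 0.31 for cKO against control (adjusted p = 0.0186 in limma) and 0.06 after centring (adjusted p = 0.666 in limma). The ratio of Polk to Col4a3bp was 0.856, 1.16, 1.06 and 1.04 in controls, 3.36, 3.22, 3.44 and 2.57 in cKO, and 1.25, 0.689, 1.17 and 1.14 in dKO. Every cKO ratio lay above every other ratio, and the log2 ratio was 1.61 higher in cKO than in control. An exact permutation test (two-sided) gave p = 0.0286, the minimum over the 70 ways to assign 4 embryos to each group, and an adjusted p of 0.0935 over the 36 ratio tests made, so no ratio passes the adjustment in this design. A ratio within a library is untouched by any factor that scales the whole library. The neighbours of Polh and Xpc gave another picture: the ratios Polh to Xpo5 and Xpc to Lsm3 overlapped between cKO and control, with log2 differences of -0.25 and 0.04 (exact permutation p = 0.0571 and 0.8).

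Polh encodes polymerase eta, which copies accurately past UV-induced thymine dimers. It stood at 4.31, 3.82, 4.83 and 4.41 TPM in controls, 4.81, 5.32, 4.65 and 6.34 in cKO, and 4.04, 3.13, 3.33 and 3.63 in dKO. The cKO and control embryos overlapped, and every dKO embryo lay below every cKO embryo. The difference was 0.23 for cKO against control (adjusted p = 0.0875 in limma), near the all-gene median of 0.25, and -0.47 ± 0.10 (SE) for dKO against cKO (adjusted p = 0.00451 in limma). The latter remained below 0 but lost its call after centring (-0.20, adjusted p = 0.165 in limma). For dKO against control the difference was -0.24, with a 95% interval from -0.45 to -0.02 (adjusted p = 0.201 in limma).

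Poli, the gene of polymerase iota, was the lowest of the 7 in control. Its level was 1.15, 1.31, 1.47 and 1.45 TPM in controls, 1.97, 2.03, 1.41 and 2.32 in cKO, and 1.52, 1.32, 1.57 and 1.72 in dKO. Embryo 3 of cKO lay inside the control range and the other 3 lay above it. Poli rose by 0.31 ± 0.10 (SE) in cKO (adjusted p = 0.0349 in limma), but 13 of the 20 alternatives ended this call, among them centring (0.07, adjusted p = 0.752 in limma). Between dKO and cKO the difference was -0.20 (adjusted p = 0.129 in limma), and between dKO and control 0.11 (adjusted p = 0.618 in limma).

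Rev3l, the catalytic subunit gene of polymerase zeta, stood at 4.21, 4.48, 3.68 and 4.36 TPM in controls. In cKO it stood at 4.14, 5.86, 6.05 and 4.86 TPM, and in dKO at 2.97, 3.32, 4.11 and 3.76. The cKO embryos 2, 3 and 4 exceeded all controls and embryo 1 did not, while every dKO embryo lay below every cKO embryo by a narrow margin. The difference was 0.26 for cKO against control (adjusted p = 0.0911 in limma) and -0.45 ± 0.11 (SE) for dKO against cKO (adjusted p = 0.00962 in limma). That call ended after centring, with a difference of -0.18 (adjusted p = 0.388 in limma). For dKO against control the difference was -0.20 (adjusted p = 0.369 in limma).

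Partners of these polymerases were examined with the members. Rev1, the scaffold on which the translesion polymerases assemble, stood at 12.5 ± 0.899 TPM in controls, 20.1 ± 1.75 in cKO and 14.3 ± 1.21 in dKO (SD, n = 4 per group), and its 4 cKO values lay above all others. Rev1 rose by 0.64 ± 0.09 (SE) in cKO (adjusted p = 0.000552 in limma) and by 0.40 after centring (adjusted p = 0.00715 in limma). Mad2l2, the REV7 subunit that binds REV3L, had a difference of 0.20 for cKO against control (adjusted p = 0.278 in limma) and one of -0.45 for dKO against cKO (adjusted p = 0.0276 in limma, 0.397 after centring). The ratio of Rev3l to Mad2l2 overlapped between cKO and control (log2 difference 0.06, exact permutation p = 0.714). Pcna, the sliding clamp that recruits translesion polymerases when ubiquitylated, moved the other way, from 156 ± 10.3 TPM (controls) to 121 ± 18.0 in cKO, with 121 ± 15.8 in dKO (SD, n = 4 per group). It fell by 0.37 in cKO (adjusted p = 0.036 in limma), and by 0.62 after centring (adjusted p = 0.0048 in limma).

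Xpc encodes the damage sensor that starts global genome repair. Its level was 4.11, 3.58, 4.18 and 4.39 TPM in controls, 4.94, 4.96, 3.87 and 5.58 in cKO, and 3.77, 3.68, 4.22 and 4.25 in dKO. The 3 groups overlapped, and cKO embryo 3 lay among the controls while the other 3 cKO embryos lay above them. The difference was 0.20 for cKO against control, with a 95% interval from -0.01 to 0.41 (adjusted p = 0.114 in limma), and -0.22 for dKO against cKO (adjusted p = 0.0788 in limma), both near the all-gene medians. For dKO against control it was -0.02, with an interval from -0.23 to 0.18 (adjusted p = 0.927 in limma).

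Ddb2 encodes the subunit of the UV-damage sensor that recognises the lesion; the human gene is a p53 target, whereas the mouse gene is known for a weak p53 response. It stood at 1.72, 1.69, 1.50 and 1.76 TPM in controls, 1.88, 2.29, 1.52 and 2.61 in cKO, and 1.87, 1.47, 1.18 and 1.47 in dKO. Again cKO embryo 3 lay in the control range, and the groups overlapped. The difference was 0.19 in cKO against control (95% interval from -0.06 to 0.45, adjusted p = 0.207 in limma), -0.29 for dKO against cKO (adjusted p = 0.0636 in limma) and -0.10 for dKO against control (adjusted p = 0.696 in limma). Ddb1, its far more abundant partner, stood at 24.9 ± 3.90 TPM in controls, 29.4 ± 3.85 in cKO and 23.4 ± 3.31 in dKO (SD, n = 4 per group) and was not called. The ratio of Ddb2 to Ddb1 was 0.0684 ± 0.0128 in controls, 0.0699 ± 0.00853 in cKO and 0.0658 ± 0.0200 in dKO (SD, n = 4 per group).

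Rrm2b stood at 1.32, 1.81, 2.09 and 2.46 TPM in controls, 2.63, 3.19, 2.34 and 3.24 in cKO, and 1.45, 1.38, 1.49 and 1.69 in dKO. Control embryo 4 exceeded cKO embryo 3, so these groups overlapped, while every dKO embryo lay below every cKO embryo. Rrm2b rose by 0.41 ± 0.12 (SE) in cKO (adjusted p = 0.024 in limma), and the call ended after centring (0.16, adjusted p = 0.488 in limma) and without control embryo 2, cKO embryo 2 or cKO embryo 4. In dKO against cKO its difference was -0.62 ± 0.12 (SE; adjusted p = 0.00317 in limma), which fell short of a call after centring (-0.35, adjusted p = 0.103 in limma). For dKO against control the difference was -0.21 (adjusted p = 0.374 in limma).

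The other ribonucleotide reductase subunits did not move with Rrm2b in cKO. Rrm1, the large subunit, stood at 20.6 ± 1.99 TPM in controls, 18.4 ± 2.56 in cKO and 15.9 ± 1.39 in dKO, and Rrm2 at 17.7 ± 3.67, 15.6 ± 1.93 and 10.2 ± 0.729 (SD, n = 4 per group). Their differences for cKO against control were -0.16 (adjusted p = 0.235 in limma) and -0.15 (adjusted p = 0.354 in limma), and both were lower in cKO after centring (-0.41, adjusted p = 0.0145, and -0.40, adjusted p = 0.0304, in limma). Rrm2 was lower in dKO than in control, with a difference of -0.72 (adjusted p = 0.00732 in limma). The ratio of Rrm2b to Rrm1 was 0.0570, 0.0887, 0.101 and 0.134 in controls, 0.156, 0.168, 0.147 and 0.149 in cKO, and 0.0819, 0.0966, 0.0957 and 0.106 in dKO. Every cKO ratio exceeded every control and dKO ratio, and the log2 ratio was 0.77 higher in cKO than in control and -0.71 lower in dKO than in cKO (exact permutation p = 0.0286 each, adjusted p = 0.0935). The ratio of Rrm2b to Rrm2 was likewise higher in each cKO embryo than in any control, by 0.76 on the log2 scale and by 0.46 without control embryo 1 (exact permutation p = 0.0286 with all embryos, adjusted p = 0.0935). It overlapped between dKO and cKO (log2 difference -0.30, exact permutation p = 0.0571).

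**Figure D2:**
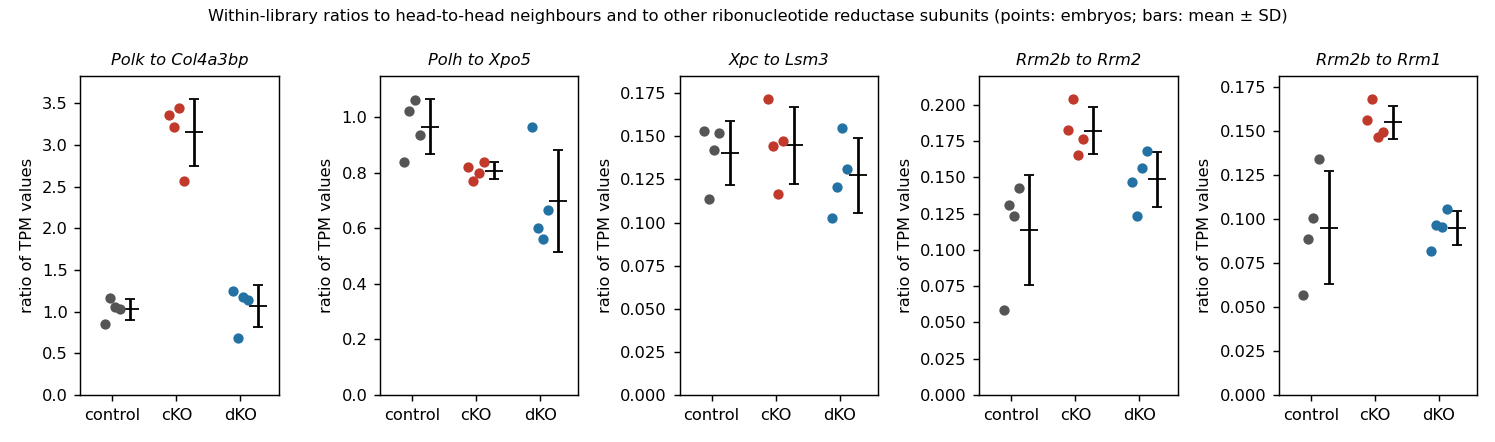
Ratio of the TPM values of 2 genes within each library (y axis, own scale per panel, starting at 0) for Polk, Polh and Xpc against their head-to-head neighbours and for Rrm2b against Rrm2 and Rrm1; points are embryos and bars mean ± SD (n = 4). The cKO ratios of Polk to Col4a3bp lie between 2.57 and 3.44, above all others, and those of Rrm2b to Rrm1 lie between 0.147 and 0.168.

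Over the 7 members, 3 were called higher in cKO than in control (Poli, Polk and Rrm2b) and none lower, where limma called 34.3% of all tested genes higher and 1.09% lower. In dKO against cKO, 4 were called lower (Polh, Polk, Rev3l and Rrm2b) and none higher, against 38.8% of all genes lower and 0.612% higher. In dKO against control limma called 0 members, with 1 (Polh) at an unadjusted p under 0.05, against 1.79% of all genes higher and 3.4% lower. Read against these shares, the counts as deposited are not a result about the members. After centring, limma called Polk alone, higher in cKO than in control (3.72% of all genes higher and 2.96% lower) and lower in dKO than in cKO (3.83% of all genes lower and 2.1% higher), and called no member in dKO against control (3.74% higher and 4.69% lower; 1 member, Polh, at an unadjusted p under 0.05). After protein-coding rescaling, which gives all libraries the same protein-coding total, Polk was the only member called in cKO against control (11.3% of all genes higher and 1.74% lower), Polk, Polh and Rrm2b were called lower in dKO than in cKO (8.28% of all genes lower and 1.4% higher), and none was called in dKO against control (5.44% higher and 3.74% lower). The same members were called when the protein-coding genes of RefSeq set the total, where 5.13% of all genes were higher and 2.23% lower in cKO than in control, 7.01% lower and 1.59% higher in dKO than in cKO, and 3.39% higher and 5.71% lower in dKO than in control. The groups did not overlap for 1 member (Polk) in cKO against control, where 32.7% of all genes were higher and 0.91% lower without overlap. They did not overlap for 4 members in dKO against cKO, where 32.8% were lower and 0.417% higher without overlap, and overlapped for all 7 in dKO against control, where 5.14% were higher and 8.44% lower without overlap.

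**Figure D3:**
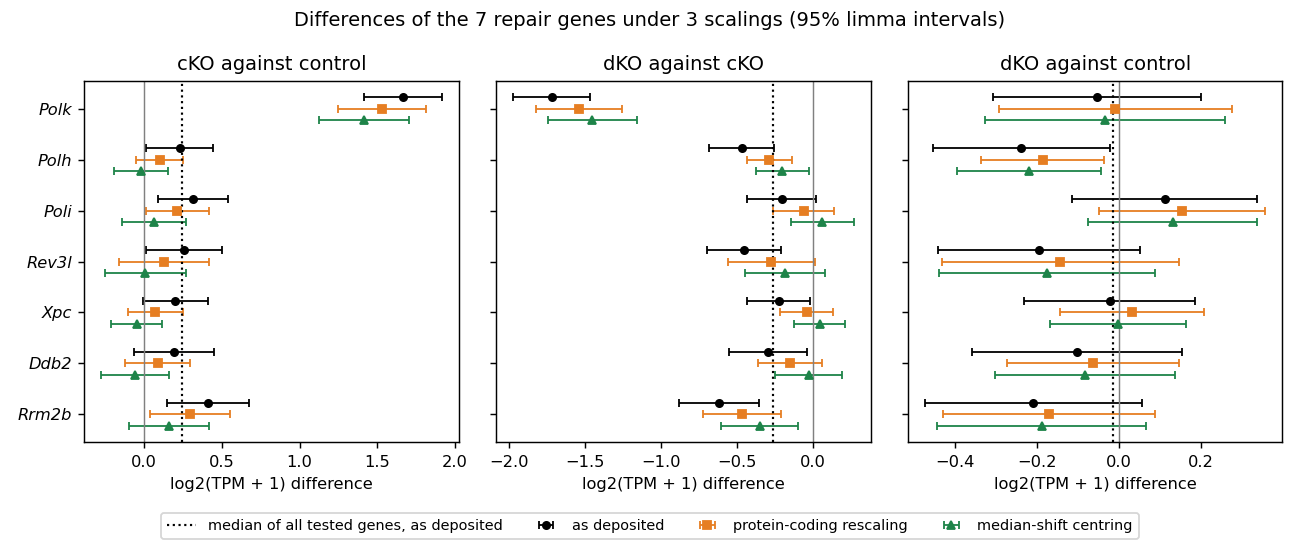
Differences of the 7 genes on the log2(TPM + 1) scale (x axis, own range per panel) for the 3 comparisons, as deposited (black circles), after protein-coding rescaling (orange squares) and after median-shift centring (green triangles); bars are 95% limma intervals, the grey line is 0 and the dotted line the median of all tested genes. Polk stands at 1.66, 1.53 and 1.42 in cKO against control, and the other 6 members lie between 0.19 and 0.41 as deposited, around the dotted line at 0.25.

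**Figure D4:**
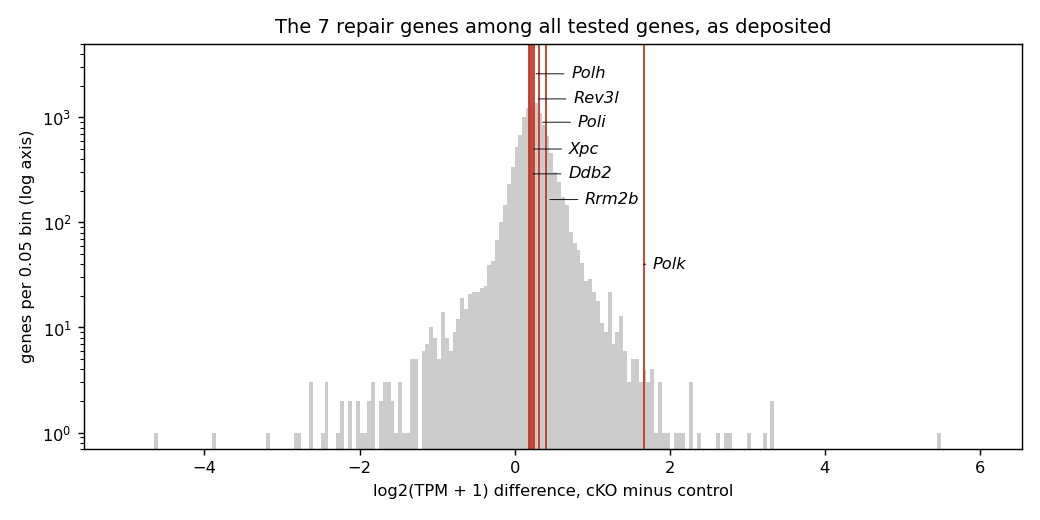
Number of tested genes (y axis, log scale) by their log2(TPM + 1) difference, cKO minus control (x axis, bins of 0.05), with red lines at the 7 members. Polk at 1.66 stands in the upper tail with 29 genes above it, and the other 6 lie between 0.19 and 0.41, within the bulk of the 11764 genes.

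The order of the levels changed with genotype. In control, Polh (4.34 ± 0.417 TPM), Rev3l (4.18 ± 0.354) and Xpc (4.06 ± 0.345) were highest and lay within 1 SD of each other (SD, n = 4 per group). Polk, Rrm2b (1.92 ± 0.479), Ddb2 (1.67 ± 0.113) and Poli (1.35 ± 0.147) followed, where Polk and Rrm2b, and Rrm2b and Ddb2, lay within their spread. In cKO, Polk was the highest at 9.52 TPM, followed by Polh (5.28 ± 0.760), Rev3l (5.23 ± 0.895) and Xpc (4.84 ± 0.708), which again overlapped. Rrm2b (2.85 ± 0.437), Ddb2 (2.07 ± 0.478) and Poli (1.93 ± 0.379) were the lowest in cKO. In dKO the levels were 3.53 ± 0.395 for Polh, 3.54 ± 0.498 for Rev3l, 3.98 ± 0.299 for Xpc, 1.53 ± 0.162 for Poli, 1.50 ± 0.285 for Ddb2 and 1.50 ± 0.131 for Rrm2b, with Polk at 2.24 between these sets of 3.

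Some embryos stood at the same end of the range in several members. In cKO, embryo 4 was the highest in 5 of the 7 members and embryo 3 the lowest in 5, and embryo 4 also had the highest protein-coding share, 19.99% of TPM. In dKO, embryo 2 was the lowest in 5 members. Without cKO embryo 3, all 7 members were called lower in dKO than in cKO, where limma called 40.8% of all genes lower. Without control embryo 2, cKO embryo 2 or cKO embryo 4, Polk was the only member called in cKO against control, with 21.7%, 20.2% and 20.2% of all genes called higher in the same order.

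The rest of each pathway was taken from lists of named genes. Of 25 other nucleotide excision repair genes tested, 9 rose and none fell in cKO against control, beside 34.3% and 1.09% of all genes. In dKO 9 were lower than in cKO, beside 38.8% of all genes. The list median in cKO was 0.26, beside 0.25 for all genes. After centring 1 was called higher and 1 lower in cKO (3.72% and 2.96% of all genes). In dKO against cKO 1 of the 25 (Cul4a) was also called lower after centring (3.83% of all genes). Ercc5, the XPG endonuclease that cuts 3′ of the lesion, was the gene of that list called higher after centring. It stood at 3.35 ± 0.243 TPM in controls, 6.60 ± 0.808 in cKO and 3.77 ± 0.636 in dKO (SD, n = 4 per group), with no overlap between cKO and the others. Ercc5 rose by 0.80 in cKO (adjusted p = 0.000397 in limma), and by 0.55 after centring (adjusted p = 0.0121 in limma). In dKO against cKO its difference was -0.68 (adjusted p = 0.000933 in limma), and -0.41 after centring (adjusted p = 0.0543 in limma). Cul4a, the cullin of the ligase that holds DDB1 and DDB2, rose by 0.41 in cKO (adjusted p = 0.0055 in limma). After centring its difference was 0.16 (adjusted p = 0.204 in limma). Its difference for dKO against cKO was -0.53 (adjusted p = 0.00126 in limma), and -0.26 after centring (adjusted p = 0.0482 in limma).

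Of 18 other translesion synthesis genes tested, 5 rose and 1 (Pcna) fell in cKO against control, with a median of 0.17. In dKO 7 were lower than in cKO. Over all genes, 34.3% were higher and 1.09% lower in cKO, and 38.8% lower in dKO than in cKO. After centring, Rev1 was called higher and Pcna lower in cKO against control (3.72% and 2.96% of all genes). None was then called in dKO against cKO (3.83% of all genes lower). Primpol, which restarts synthesis beyond a lesion, rose by 0.48 in cKO (adjusted p = 0.00888 in limma; 0.23 after centring, adjusted p = 0.252). Of 20 other nucleotide supply genes tested, 3 rose and 1 fell in cKO against control (34.3% and 1.09% of all genes). In dKO 11 were lower than in cKO (38.8% of all genes) and 5 lower than in control (3.4%). After centring, 1 (Nt5c, named after its values were seen) was called lower in dKO than in cKO (3.83% of all genes). Centring also gave 6 lower in dKO than in control (4.69% of all genes). Tyms, thymidylate synthase, fell by 0.28 in cKO (adjusted p = 0.0414 in limma) and by 0.53 after centring (adjusted p = 0.000884 in limma). After centring, the 6 genes of that list called in cKO against control were all lower, with Rrm1, Rrm2 and Tyms among them. Over all genes, 2.96% were called lower there. Dctd, a deaminase that feeds thymidylate synthesis, and Tk2, the mitochondrial thymidine kinase, rose by 0.45 and 0.36 as deposited (adjusted p = 0.0113 and 0.0329 in limma), and neither was called after centring (adjusted p = 0.221 and 0.587 in limma).

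A list of 14 tested p53 reference targets outside repair, written from general knowledge, gives a scale for these values. All 14 rose in cKO against control (34.3% of all genes higher), with a median of 1.16. In dKO 12 were lower than in cKO (38.8% of all genes lower), with a median of -1.30. After centring 12 were called higher in cKO (3.72% of all genes) and 12 lower in dKO than in cKO (3.83%). Bbc3 and Pmaip1, also listed, did not reach a mean of 1 TPM. Eda2r and Sesn2 averaged under 1 TPM in control and in dKO and reached the filter through cKO. Their calls are thus partly set by the filter. The listed genes come from the same 12 libraries, and earlier results on them were known, so they are a scale and not independent support. In cKO against control the 14 lay between 0.30 and 2.78. Polk at 1.66 was the only member inside the upper part of that range. Sesn2, a stress-induced sestrin gene, stood near it at 1.73 on this scale, which understates changes of low genes. In mean TPM, Sesn2 rose 7.94-fold and Polk 4.09-fold. The other members, from 0.19 to 0.41, lay around the lowest of the 14.

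**Figure D5:**
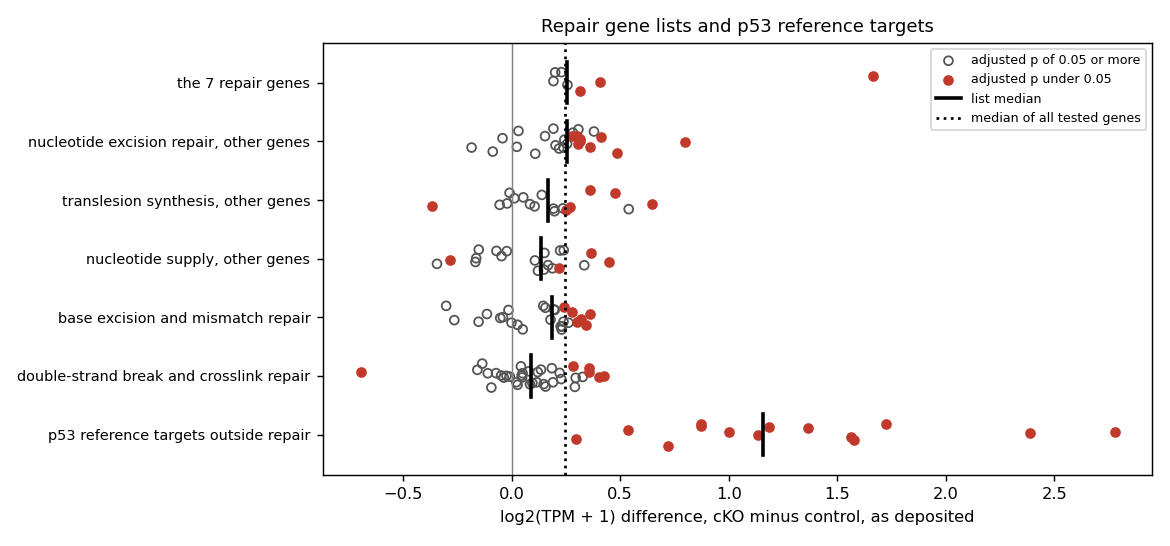
Differences on the log2(TPM + 1) scale, cKO minus control as deposited (x axis), of single genes in the 7 members, the 5 repair and nucleotide lists and the p53 reference targets; red points have an adjusted p under 0.05 in limma, bars are list medians and the dotted line is the median of all tested genes. The repair lists have medians between 0.09 and 0.26, near or below the dotted line at 0.25, and the reference targets a median of 1.16.

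Genes whose log2(TPM + 1) followed a member most closely over the 12 libraries are given as a description, since all values share libraries and composition. For Polk these were Eda2r (Pearson r = 0.986), Ano3 (0.985) and Inka2 (0.983), and after centring r was 0.977, 0.977 and 0.978 in the same order. For Rrm2b they were Scg5 (0.966, after centring 0.927) and Csgalnact2 (0.953, after centring 0.557). For Polh they were Wbp4 (0.984), Hnrnpm (0.977) and Klhdc4 (0.967), with 0.951, 0.917 and 0.928 after centring. For Rev3l they were Unc13b (0.964), Tpr (0.953) and Ascc3 (0.953), with 0.926, 0.930 and 0.918 after centring. Those of Poli were Marc2 (0.955), Sec23a (0.947) and Cfap298 (0.944), with 0.831, 0.871 and 0.845 after centring. Those of Ddb2 were Sbds (0.949), Gm48990 (0.947) and Gm8666 (0.941), with 0.868, 0.876 and 0.867 after centring. Those of Xpc were Aldoa (0.956), Xpnpep1 (0.956) and Ano10 (0.955), with only 0.573, 0.656 and 0.677 after centring. Among the members themselves, r lay between 0.300 (Poli with Rev3l) and 0.874 (Poli with Xpc). After centring the highest values were 0.704 for Poli with Xpc and 0.628 for Polk with Rrm2b.

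In bulk tissue, fewer cells of a type and less RNA per cell cannot be told apart. Summed TPM of 7 microglial markers was 9.21 to 10.6 in controls, 34.2 to 48.6 in cKO and 10.4 to 14.2 in dKO, a pattern over the groups like that of Polk. Of the 6 tested microglial genes, 5 were called higher in cKO than in control, as deposited and after centring. In dKO 6 were lower than in cKO (4 after centring), beside 38.8% of all genes (3.83% after centring). Cx3cr1 (0.688 TPM in controls, 2.98 in cKO, 0.823 in dKO) and Csf1r (0.538, 1.75 and 0.842) reached the filter through cKO. Their calls are thus partly set by the filter. The calls of these and the other marker lists are read against 34.3% of all genes called higher in cKO as deposited and 3.72% after centring. The 7 vessel and mural cell markers summed to 9.72 to 12.4, 19.2 to 25.1 and 12.1 to 18.8 TPM, and 5 of 5 tested rose in cKO (3 after centring). Of these, Tek (0.749 TPM in controls, 1.43 in cKO, 1.01 in dKO) also reached the filter through cKO. The 7 neuronal markers summed to 128 to 135, 185 to 219 and 93.8 to 140 TPM, and 5 of 6 tested rose in cKO, but 0 after centring with limma. In dKO, 6 of these 6 were called lower than in cKO as deposited, beside 38.8% of all genes, and 2 after centring. Meningeal markers (5 genes) summed to 22.7 to 39.4, 40.9 to 49.1 and 35.8 to 52.5 TPM, and 3 of 4 tested rose in cKO (1 after centring). Ventral telencephalic markers summed to 1.68 to 2.34, 3.21 to 5.11 and 1.50 to 3.38 TPM, far below the pallial markers at 131 to 152, 140 to 166 and 81.3 to 131, and the 1 tested gene of the ventral list, Dlx1, rose in cKO as deposited but was not called after centring. As deposited, limma called none of the 7 pallial, 7 proliferation and 8 red blood cell markers in cKO against control; proliferation markers summed to 420 to 493, 360 to 523 and 305 to 380 TPM, and red blood cell markers to 2050 to 3111, 2505 to 3468 and 2229 to 2857 TPM. After centring, the pallial markers Emx1 and Eomes and the proliferation marker Ccna2 were called lower in cKO than in control. Eomes and Neurod6, of the pallial list, were called lower in dKO than in control and than in cKO as deposited, and after centring in dKO against control, with Emx1, but not against cKO. The proliferation marker Aurkb was called lower in dKO than in cKO as deposited, and Aurkb and Ccna2 lower in dKO than in control after centring. No marker was at 0 in every embryo of a group. The part of these cell types in the levels of Polk and the other members was not tested.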

How the data were processed

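RNA from 12 E13.5 mouse pallia was sequenced. The authors deposited 1 table per embryo with a TPM value for each gene symbol; the unit is inferred from the values, since each table sums to 1000000 and no header names it. Alignment used HISAT2 and the mm10 build, per the submitters' processing notes; the quantification tool, annotation and strand setting are not given in the sources used here. TPM keeps no depth, so depth is unknown.

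Groups come from the genotype labels. log2(TPM + 1) was fitted with limma 3.58.1 (lmFit, eBayes with trend, R 4.3.3) over the 11764 genes whose mean reached 1 TPM, with the 3 groups in 1 fit and Benjamini-Hochberg adjustment over all genes. All 7 members passed that filter. Ratios of 2 genes within a library were tested by exact two-sided permutation (scipy 1.17.1, Python 3.11.15) over 70 assignments, adjusted over 36 tests. On simulated data with 200 of the 11764 genes changed by 1 in cKO against control, the fit recovered 183, with 9 false calls. The simulated libraries had no shift of the typical gene, so this check does not cover the shift in the real libraries.

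The members and gene lists were chosen with earlier results of these data known. Named genes are the members, Rnu11, Trp53, the partners Ddb1, Rev1, Mad2l2, Pcna, Rrm1 and Rrm2, up to 3 called genes per list with the largest difference in cKO against control, and the 3 genes most like each member; some of the genes this rule names are not reported here. Neighbouring genes, the ratios and the rescaling to RefSeq protein-coding genes were chosen after the data were seen. Alternatives were a pseudocount of 0.1, other filters, centring, protein-coding rescaling, quantile normalization, fits of 2 groups, the replicate number as a block, and leaving out each embryo. Gene positions are from GENCODE and sequences from RefSeq promoter windows, both on GRCm38; 2 of the 7 members had a window, and the Xpc stretch came from the window of Lsm3. Plots were drawn with matplotlib 3.10.9.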

Additional observations from a re-analysis of the deposited data

How the results depend on the processing

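The calls of Polk in cKO against control and in dKO against cKO were made under all 20 alternatives. The number of members called in cKO against control was 3, and 1 (Polk) with no filter on low values, median-shift centring, protein-coding rescaling, quantile normalization and RefSeq rescaling (chosen after seeing the data). Leaving out 1 embryo at a time gave 1 to 4 members there, 4 to 7 in dKO against cKO (7 without cKO embryo 3) and 0 in dKO against control. The share of all genes called moved as well, from 20.2% to 35.9% higher in cKO against control and from 25.7% to 40.8% lower in dKO against cKO. In dKO against cKO the number was 4, and 1 (Polk) after centring and after quantile normalization. Of all genes, 38.8% were called lower and 0.612% higher there as deposited. Centring gave 3.83% and 2.1%, and quantile normalization 4.22% and 2.57%. In dKO against control limma called 0 members under every alternative run. A filter at a mean of 5 TPM left no member to test. Signs turned for small differences. In cKO against control, centring gave -0.0203 for Polh, -0.0493 for Xpc and -0.0571 for Ddb2, and quantile normalization gave -0.0437 for Polh, -0.0120 for Rev3l, -0.0797 for Xpc and -0.0863 for Ddb2. In dKO against cKO, centring gave 0.0646 for Poli and 0.0455 for Xpc, and quantile normalization 0.0782 and 0.0718. In dKO against control, Xpc was 0.0316 after protein-coding rescaling, and leaving out 1 embryo gave -0.0712 to 0.00731 for Xpc (above 0 without control embryo 4 or dKO embryo 2) and -0.141 to 0.0656 for Polk (above 0 without dKO embryo 2). None of these was called, and the cause was not tested. The shift of the typical gene limits what the 6 members other than Polk can show, and the unknown depth leaves the precision of single values unknown.

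Replicate numbers repeat across genotypes, but same-numbered embryos did not deviate together (r from -0.0954 to 0.0745 over genes), so the numbers were not taken as pairs. With the replicate number as a block, 2 members were called in cKO against control (the Poli call was lost, adjusted p = 0.0592 in limma), 0 in dKO against control and 4 in dKO against cKO. The same fit called 24.4% of all genes higher in cKO against control and 30.2% lower in dKO against cKO.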

Other observations

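Repair pathways without a member among the 7 genes also had small differences. Of 26 tested base excision and mismatch repair genes, 6 rose and none fell in cKO against control (34.3% and 1.09% of all genes). The list median there was 0.19, beside 0.25 for all genes. In dKO 13 were lower than in cKO (38.8% of all genes lower) and 3 lower than in control (3.4%). Nthl1, a DNA glycosylase gene, rose by 0.34 in cKO (adjusted p = 0.0453 in limma). After centring, 0 of the 26 were called higher in cKO against control and 4 lower by limma (3.72% and 2.96% of all genes). In dKO against cKO 2 were lower and 1 higher (3.83% and 2.1% of all genes).

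Of 36 tested double-strand break and crosslink repair genes, 5 rose and 1 fell in cKO against control (median 0.09), where 34.3% of all genes were called higher. After centring limma called 0 higher and 3 lower (3.72% and 2.96% of all genes). Xrcc5, which encodes Ku80 of the end-joining machinery, stood at 5.35, 5.40, 5.67 and 5.60 TPM in controls, 2.46, 3.16, 3.20 and 3.30 in cKO, and 2.18, 1.81, 2.63 and 2.44 in dKO. Both mutant groups lay wholly below control. Xrcc5 fell by 0.70 in cKO (adjusted p = 0.000511 in limma) and by 1.00 in dKO (adjusted p = 0.000114 in limma), and after centring by 0.95 and 0.98. Unlike that of Polk, the dKO mean of Xrcc5 did not lie in the control range. Lig4, the end-joining ligase gene, was 0.40 higher in cKO than in control (adjusted p = 0.00298 in limma; 0.15 after centring, adjusted p = 0.198), and Fancg, a Fanconi core complex gene, 0.42 higher (adjusted p = 0.0161 in limma; 0.17 after centring, adjusted p = 0.29).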
